A study of Mus musculus with 10 samples.

Results

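Imprinted genes were followed by locus in embryonic mouse limb buds with and without Dicer, the enzyme that makes mature microRNAs from their hairpin precursors. From a list of 34 imprinted genes at 15 loci, 31 had at least 1 probe set annotated to that gene symbol alone, out of 18193 such genes on the array. H19, Rtl1 and Zrsr1 had none. The probe set with the highest mean log2 signal over all 10 arrays stood for each gene. Of the 31 genes, 26 at 14 loci passed a filter on dim signals (a mean signal of at least 151.4, the median of all probe sets), and these were tested. Zim1, at 172, lay nearest above that limit. Peg12, Magel2, Peg10, Usp29 and Mkrn3, at 151.0, 149.8, 129, 121 and 105, lay below it. The limb buds came from matings of mice with floxed Dicer alleles, in which a parent also carried prxcre, a Cre driver active in limb bud mesenchyme but not in the overlying ectoderm. Affymetrix arrays were hybridised with total RNA, 5 labelled Dicer mutant and 5 labelled wild type, numbered 1 to 5 in each group. The sources used here do not give the embryonic stage, which limbs were taken, how many embryos an array holds, or whether embryos with 1 deleted Dicer allele count as wild type. The p-values below therefore measure the spread between these samples, which may in part be technical, and the number of arrays limits their precision.

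Genomic imprinting is the expression of a gene mainly from the allele inherited from 1 parent. It is in most known cases set by DNA methylation laid down in the egg or the sperm at imprinting control regions. Many of these regions govern a cluster of neighbouring genes, often with a long noncoding RNA expressed from the opposite allele. Many imprinted genes act on growth of the embryo and placenta: Igf2, expressed from the paternal allele, encodes a growth factor, and Igf2r, expressed from the maternal allele in mice, encodes the receptor that removes it. Some clusters also carry microRNA genes, whose hairpins are substrates of Dicer. The arrays measured host and neighbouring transcripts and not mature microRNAs, and a total signal cannot tell the parental alleles apart.

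The targeted gene, Dicer1, checked the labels. At 1427941_at its signals were 226, 360, 221, 215 and 205 in Dicer mutant 1 to 5, against 425, 233, 372, 390 and 706 in wild type 1 to 5. At 1460571_at they were 555, 774, 523, 534 and 506 in the mutant arrays, against 771, 551, 753, 707 and 940 in the wild type arrays. At both probe sets the mutant arrays numbered 1, 3, 4 and 5 lay below all wild type arrays of those numbers. At 1460571_at the library labelled Dicer mutant 2 lay among these wild type values and the library labelled wild type 2 among these mutant values. At 1427941_at both lay between the groups, Dicer mutant 2 just under the wild type values and wild type 2 just over the mutant values. The log2 fold change of 1427941_at was -0.74 (SE 0.25, 5 arrays in each group, p = 0.0159 by a two-sided exact permutation test) with all arrays as labelled and -1.08 (SE 0.18, 4 arrays in each group, exact p = 0.0286, the smallest that 4 against 4 allows) without the pair numbered 2. That of the brighter 1460571_at was -0.36 (SE 0.15, exact p = 0.0952) as labelled and -0.57 (SE 0.10, exact p = 0.0286) without the pair numbered 2. Each comparison below is therefore given for the 10 arrays as labelled and for the 8 arrays without that pair. The choice of the 8 was made after Dicer1 was seen, so the Dicer1 p-values in the 8 cannot check the labels. No p-value is corrected for this choice. Median signals of the arrays lay between 145.9 and 152.8. All 12 listed limb bud mesenchyme markers passed the filter, among them Prrx1 (mean signal 2539) and Hoxd13 (3165). The mutant and wild type arrays of the 8 had summed signals of these markers of 11767 to 13930 and 11481 to 14138.

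Few imprinted genes changed. In the 8 arrays, Pon2 and Ppp1r9a, neighbours on chromosome 6 listed as expressed from the maternal allele, rose in the mutants, and 0 of the 26 tested imprinted genes were called lower. Mest, at another locus of that chromosome, was called as well when the array number was fitted as a block (limma adjusted p = 0.0204). Without the block limma called these 2 of 26 (7.69%) at a Benjamini-Hochberg adjusted p below 0.05, beside 250 of 11601 genes (2.15%), of which 132 were higher (1.14%) and 118 lower (1.02%). The imprinted genes had log2 fold changes from -0.18 to 1.00 with a median of 0.01, beside a median of -0.01 over all genes tested, and a median size without sign of 0.11, beside 0.09. An unadjusted p below 0.05 was reached by 5 of the 26, beside 14.7% of all genes. Of the 12 tested genes listed as expressed mainly from the paternal allele 0 were called, with a median of -0.01. Of the 14 listed as expressed mainly from the maternal allele 2 were called, with a median of 0.03. The active allele was not measured in these samples. Mutant and wild type arrays did not overlap for 4 of the 26 genes, Pon2, Ppp1r9a, Mest and Snrpn, beside 10.5% of all genes tested. Of these only Snrpn also had separate groups in the 10 arrays, where 0.379% of all genes did. With all 10 arrays as labelled limma called 0 of 26 imprinted genes and 0% of all genes. There, 2 imprinted genes, Snrpn and Pon2, had an unadjusted p below 0.05, beside 3.1% of all genes.

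**Figure D1:**
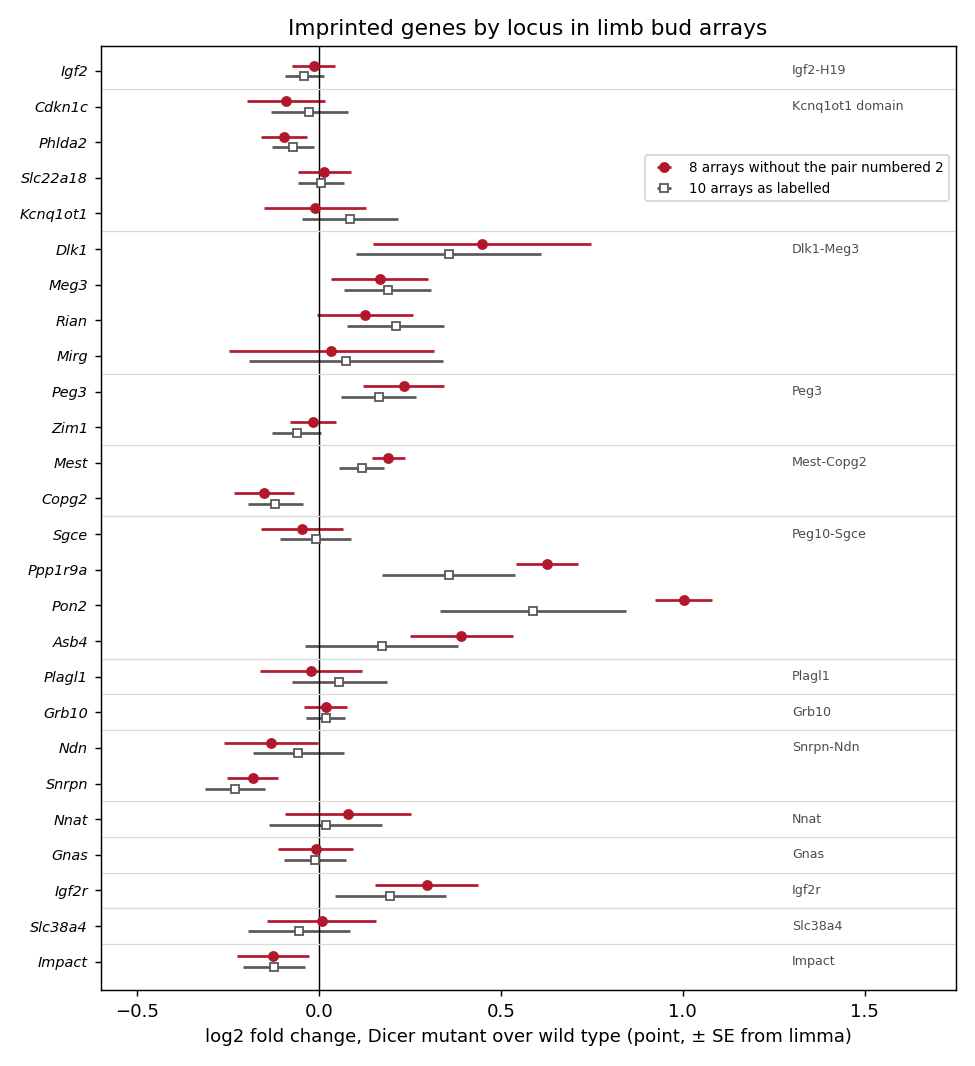
Log2 fold change of each tested imprinted gene, Dicer mutant over wild type, with ± 1 SE from limma, in the 8 arrays without the pair numbered 2 (filled circles) and in the 10 arrays as labelled (open squares), grouped by locus. Pon2 (1.00) and Ppp1r9a (0.63) stand apart from the other genes in the 8 arrays and are nearer to 0 in the 10.

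The Peg10-Sgce cluster on proximal chromosome 6 holds Peg10 and Sgce, listed as paternally expressed. Beside them lie Ppp1r9a, Pon2 and Asb4, listed as maternally expressed, which was not measured in these limb buds. Pon2 encodes paraoxonase 2, an intracellular enzyme with antioxidant and lactonase activity. At 1429019_s_at Pon2 had 345, 196, 343, 379 and 349 in Dicer mutant 1 to 5, against 179, 411, 189, 183 and 156 in wild type 1 to 5. Mutant arrays 1, 3, 4 and 5 were all well above the wild type arrays of those numbers, and the pair numbered 2 was the other way round. In the 8 arrays Pon2 rose 2.00-fold, with geometric means of 353 in mutants and 176 in wild type (1.00 on the log2 scale with SE 0.08, 4 arrays in each group, limma adjusted p = 0.000728). In the 10 arrays the log2 fold change was 0.59 (SE 0.26, 5 arrays in each group, unadjusted p = 0.0412, limma adjusted p = 1.00). The other Pon2 probe set past the filter, 1450686_at, had 273, 162, 262, 317 and 277 in the mutant arrays, against 160, 320, 165, 181 and 150 in the wild type arrays, and was also called in the 8 arrays (0.78, limma adjusted p = 0.00328). These 2 probe sets gave the same order of groups in every pair. The Pon2 probe sets 1429020_at and 1425791_at were under the filter, with mean signals of 94.6 and 93.5. In a fit without the filter they had log2 fold changes of 0.00 and 0.07 in the 8 arrays.

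The interval before the start of Pon2 is shown because Pon2 had the largest change of the cluster. It comes from the RefSeq promoter window of Pon2, without the bases inside the annotated gene (assembly GRCm38.p6, chr6:5298346-5298590, minus strand, 245 bases), and is printed 5′ to 3′ with GGGCGG, the core of the GC box bound by Sp1, in capitals.
Pon2 promoter: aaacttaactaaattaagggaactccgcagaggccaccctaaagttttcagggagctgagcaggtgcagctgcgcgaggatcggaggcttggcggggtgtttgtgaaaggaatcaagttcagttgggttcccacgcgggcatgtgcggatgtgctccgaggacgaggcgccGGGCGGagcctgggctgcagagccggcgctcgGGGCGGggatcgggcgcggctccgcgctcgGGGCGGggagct
GGGCGG was searched on both strands (as GGGCGG or CCGCCC) and stood 3 times in the full 250-base window of Pon2, while CCAAT and TATAA, also searched on both strands, stood 0 times. Over 32851 windows of the same length, 32.7% held GGGCGG, 33.8% CCAAT and 22.8% TATAA. The Pon2 window had 24 CpG dinucleotides and 65.6% G and C, against medians of 6 and 52.4% over all windows. The 2 windows of Ppp1r9a held 1 GGGCGG each, and those of Asb4 held 0.

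Ppp1r9a encodes neurabin, a scaffold that binds actin and protein phosphatase 1. At 1440285_at it had 871, 443, 833, 765 and 852 in Dicer mutant 1 to 5, against 480, 732, 563, 556 and 553 in wild type 1 to 5. Apart from the pair numbered 2, every mutant array was above every wild type array. In the 8 arrays Ppp1r9a rose 1.54-fold (0.63 on the log2 scale with SE 0.08, limma adjusted p = 0.00987), and in the 10 arrays the log2 fold change was 0.36 (SE 0.18, limma adjusted p = 1.00). The probe set 1456072_at had 629, 397, 631, 694 and 674 in the mutant arrays, against 399, 525, 450, 511 and 450 in the wild type arrays (0.54, limma adjusted p = 0.0267 in the 8 arrays). A dim further probe set of the gene, 1458942_at, had a log2 fold change of -0.08 (adjusted p = 0.91) in the 8. With the mean of all 5 probe sets of the gene, Ppp1r9a had 0.21 and was not called (limma adjusted p = 0.201).

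Asb4, a substrate adaptor of ubiquitin ligases, had signals of 2491, 1128, 2563, 1883 and 2554 in Dicer mutant 1 to 5, against 1856, 1841, 1568, 1577 and 2259 in wild type 1 to 5. Dicer mutant 2 was the lowest of all arrays, and wild type 5 lay above Dicer mutant 4, so the groups overlapped. The log2 fold change in the 8 arrays was 0.39 (SE 0.14, limma adjusted p = 0.263). A second probe set, 1423422_at, had 0.43 (adjusted p = 0.514, and 0.0435 with the array number as a block). Sgce, which encodes epsilon-sarcoglycan, had 538, 590, 473, 621 and 614 in the mutant arrays, against 522, 534, 549, 647 and 597 in the wild type arrays. The groups were interleaved, with a log2 fold change of -0.05 in the 8 arrays (SE 0.11, limma adjusted p = 0.947). Peg10, a gene derived from a retrotransposon, was under the filter, with 127, 139, 139, 130 and 116 in the mutant arrays, against 121, 126, 134, 126 and 134 in the wild type arrays.

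**Figure D2:**
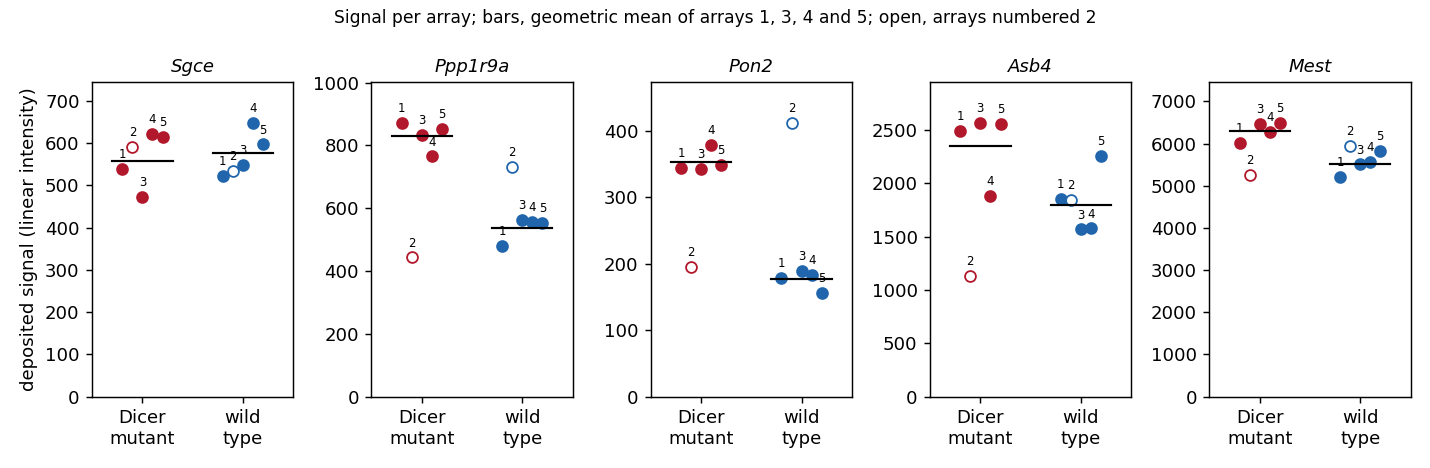
Deposited signal of Sgce, Ppp1r9a, Pon2, Asb4 and Mest in each array (linear axis from 0, each point 1 array with its number), with bars at the geometric mean of arrays 1, 3, 4 and 5 and open points for the arrays numbered 2. For Ppp1r9a and Pon2 the filled mutant points all lie above the filled wild type points, and the open points lie on the opposite sides.

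The genes around the cluster were read in RefSeq order from Calcr to Dlx5. Of 22 genes there with a probe set, 13 passed the filter and 2, Ppp1r9a and Pon2, were called in the 8 arrays. Pon1 and Pon3, paralogs of Pon2 that lie between Ppp1r9a and Pon2, were under the filter with mean signals of 103 and 75.8. Casd1, a sialic acid O-acetyltransferase gene on the other side of Sgce, had 2278, 1596, 2145, 2383 and 2607 in Dicer mutant 1 to 5, against 1659, 1944, 1702, 1889 and 1981 in wild type 1 to 5. Without the pair numbered 2 its groups did not overlap (0.38, SE 0.08, limma adjusted p = 0.0635, and 0.0132 with the array number as a block). Slc25a13, which encodes a mitochondrial aspartate and glutamate carrier, had 0.42 (adjusted p = 0.15, and 0.0247 with the block), and Sem1, a small proteasome subunit, had -0.19 (0.0635, and 0.0434 with the block). Between them and around the cluster, Col1a2 (-0.20), Bet1 (-0.09), Gng11 (0.00), Dync1i1 (0.13) and Dlx5 (-0.25) were not called, with adjusted p from 0.577 to 0.999. The domain thus held higher, lower and near 0 values among genes that lie next to each other.

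**Figure D3:**
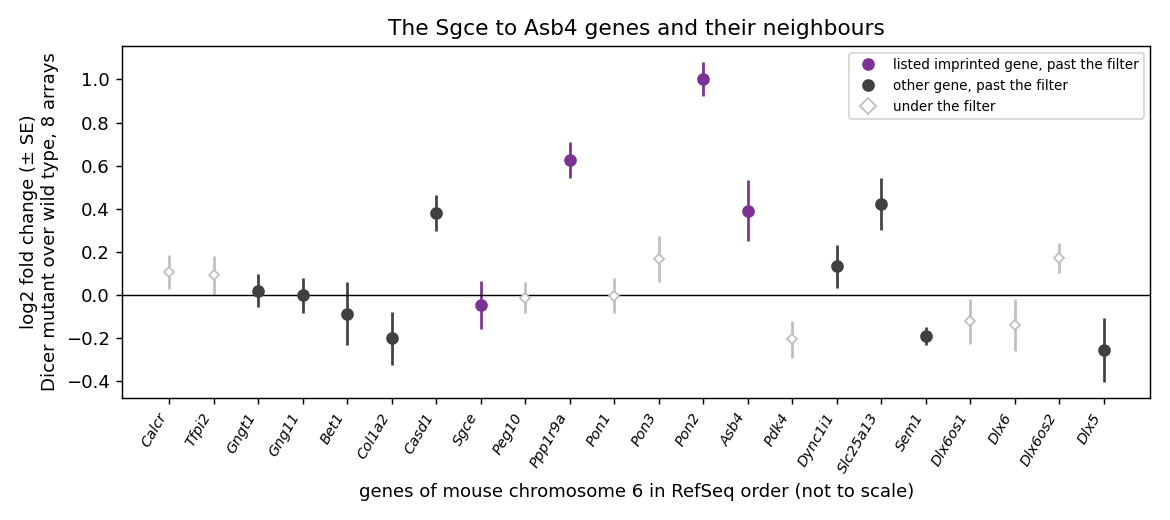
Log2 fold change, Dicer mutant over wild type in the 8 arrays, with ± 1 SE, for 22 genes in RefSeq order along chromosome 6 (horizontal axis not to scale). The imprinted genes of the list are purple and genes under the filter are open; Ppp1r9a, Pon2 and Asb4 are above 0, while Sgce and Col1a2 are at or below it.

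The Mest-Copg2 locus, further along chromosome 6, holds the paternally expressed Mest, which encodes a hydrolase-like protein abundant in embryonic mesoderm. Mest had signals of 6017, 5265, 6458, 6273 and 6479 in Dicer mutant 1 to 5, against 5203, 5948, 5506, 5569 and 5832 in wild type 1 to 5. Without the pair numbered 2 all mutant arrays were above all wild type arrays, by a small margin. The log2 fold change in the 8 arrays was 0.19 (SE 0.05), which limma did not call (adjusted p = 0.0845) and did call with the array number as a block (3 of 26 imprinted genes or 11.5% called, beside 6.59% of all genes in either direction and 2.61% higher). It was also called with array weights (0.23, adjusted p = 0.00648) and without wild type 5 (0.22, adjusted p = 0.0372). Copg2, the overlapping gene for a coat protein of transport vesicles, had -0.15 (limma adjusted p = 0.535). The span of Mest holds Mir335, and the sequence of its 5p product is shown because its hairpin is a Dicer substrate made from the same locus (RefSeq, GRCm38.p6, chr6:30741314-30741336, plus strand), with the seed, bases 2 to 8, in capitals.
miR-335-5p: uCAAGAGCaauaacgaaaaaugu

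The Dlk1-Meg3 locus on chromosome 12 is an imprinted cluster rich in microRNA genes. Paternally expressed Dlk1 encodes a transmembrane protein related to Notch ligands, and the maternal allele makes the noncoding RNAs Meg3, Rian and Mirg. In RefSeq the span from the start of Meg3 to the end of Mirg holds 60 microRNA genes with 111 mature names, among which 9 seeds are shared by at least 2 mature microRNAs. The span of Rtl1 holds 15 of these genes, that of Mirg 10, of Rian 3 and of Meg3 2. The sequences below show 1 mature microRNA from within the span of each of Meg3, Rtl1 and Rian and a pair from within that of Mirg that share the seed GGUUGCC, with seeds in capitals. They lie on the plus strand at chr12:109563710-109563731, chr12:109592888-109592909, chr12:109618305-109618326, chr12:109735669-109735692 and chr12:109739132-109739152 (GRCm38.p6).
miR-770-5p (span of Meg3): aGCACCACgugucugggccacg
miR-127-3p (span of Rtl1): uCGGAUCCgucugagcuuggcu
miR-370-3p (span of Rian): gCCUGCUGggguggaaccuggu
miR-453 (span of Mirg): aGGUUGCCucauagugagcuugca
miR-496a-5p (span of Mirg): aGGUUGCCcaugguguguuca

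None of the 4 measured genes that host or flank these microRNAs was called: limma gave 0 of 4 in the 8 arrays and 0 of 4 in the 10, with unadjusted p of at least 0.14. With the array number as a block in the 8 arrays 0 were called as well. There Meg3 had an unadjusted limma p of 0.0123 (adjusted p = 0.111) and Dlk1 one of 0.0144 (adjusted p = 0.120). Meg3, at 1439380_x_at, had signals of 2185, 2879, 2744, 2615 and 2165 in Dicer mutant 1 to 5, against 1883, 2377, 2547, 2456 and 1816 in wild type 1 to 5. The mutant array was the higher of each of the 5 pairs, but the groups overlapped (log2 fold change in the 8 arrays 0.17, SE 0.13, limma adjusted p = 0.729). Over the 9 Meg3 probe sets past the filter the log2 fold changes ran from -0.19 to 0.17, 7 above 0 and 2 below, and 0 were called. Rian had 320, 445, 297, 389 and 299 in the mutant arrays, against 275, 304, 355, 323 and 247 in the wild type arrays (0.13, SE 0.13, adjusted p = 0.826). Mirg had 277, 348, 279, 184 and 154 in the mutant arrays, against 212, 296, 342, 199 and 137 in the wild type arrays (0.03, SE 0.28, adjusted p = 0.987). For both genes mutant and wild type values were interleaved.

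Dlk1 had signals of 653, 532, 917, 376 and 346 in Dicer mutant 1 to 5, against 441, 536, 481, 322 and 330 in wild type 1 to 5. Dicer mutant 3 stood highest, and the differences within pairs numbered 4 and 5 were small. The log2 fold change in the 8 arrays was 0.45 (SE 0.30, limma adjusted p = 0.646). In pairs 1 and 3 alone it was 0.75 (limma adjusted p = 0.0499, 2 arrays per group). The differences were 0.57 and 0.93 in pairs 1 and 3, against 0.23 and 0.07 in pairs 4 and 5. This p-value thus comes from the pairs of the 8 arrays that differed most and is no further support for a change. A second Dlk1 probe set, 1442724_at, had -0.10 in the 8 arrays (limma adjusted p = 0.86), the opposite sign.

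**Figure D4:**
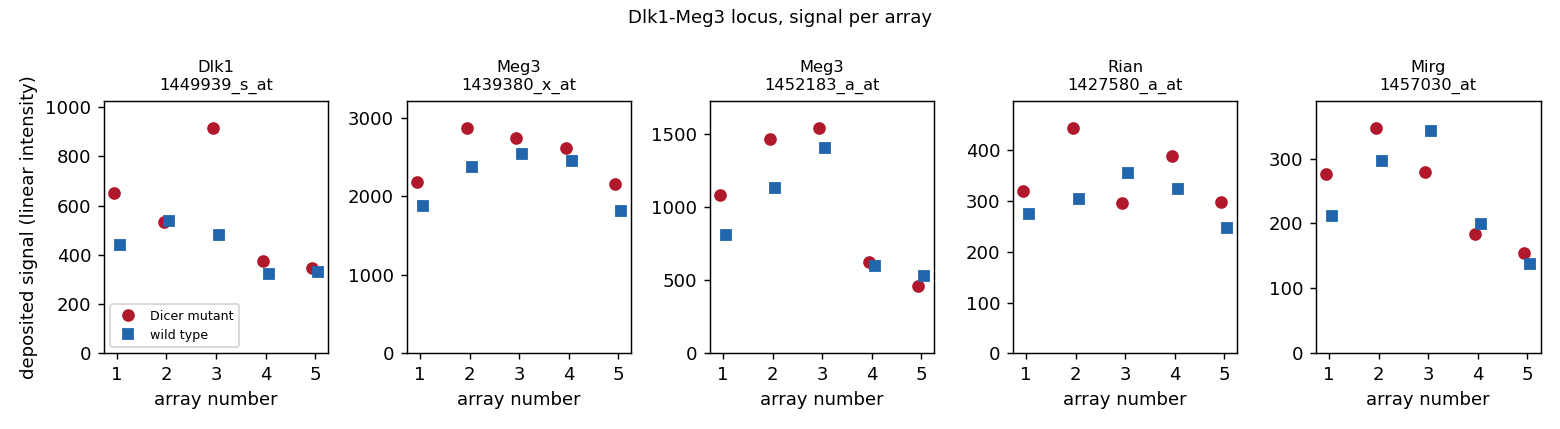
Deposited signal of Dlk1, of Meg3 at 2 probe sets, of Rian and of Mirg by array number (linear axis from 0; circles Dicer mutant, squares wild type). Dlk1, Mirg and Meg3 at 1452183_a_at are higher in the arrays numbered 1 to 3 than in those numbered 4 and 5 in both groups.

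Several imprinted genes differed between the arrays numbered 1 to 3 and those numbered 4 and 5 in mutants and wild type alike. Cdkn1c, Dlk1, Mirg, Ndn, Nnat and Gnas had all 6 arrays numbered 1 to 3 above all 4 numbered 4 and 5, and Sgce, Grb10 and Slc38a4 had the reverse. That is 9 of 26 tested imprinted genes, beside 20.3% of all genes tested. No label says what a number marks. The geometric mean in arrays 1 to 3 was 1.73-fold that in arrays 4 and 5 for Mirg, 1.68-fold for Dlk1 and 1.43-fold for Nnat, a membrane proteolipid gene of the nervous system. For Slc38a4, an amino acid transporter gene, arrays 4 and 5 were 1.33-fold higher. Other probe sets of these genes did not all follow: Dlk1 at 1442724_at was 0.84-fold in arrays 1 to 3 over arrays 4 and 5, and Grb10 at 1425457_a_at 1.13-fold. The Meg3 probe sets differed among themselves: 1452183_a_at had 1082, 1466, 1541, 625 and 459 in Dicer mutant 1 to 5, against 808, 1130, 1406, 596 and 531 in wild type 1 to 5, a 2.20-fold difference between the numbers, while 1439380_x_at differed 1.08-fold. Among cell type markers, the summed signal of all 10 skeletal muscle progenitor genes on the array was 4259 to 7092 in arrays 1 to 3 and 2686 to 4507 in arrays 4 and 5. That of all 8 cartilage genes on the array was 5809 to 7108 and 4594 to 5598. Sums of red blood cell genes, 23879 to 35330 and 32323 to 38231, and of endothelium genes, 1787 to 1976 and 1918 to 2411, leaned the other way. The part of these cell types in these differences was not tested.

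The Igf2-H19 locus on chromosome 7 pairs a growth factor gene with a noncoding RNA gene expressed from the opposite allele. Igf2 had signals of 7374, 6596, 7638, 6439 and 7280 in Dicer mutant 1 to 5, against 7662, 7298, 7329, 7217 and 6775 in wild type 1 to 5. The groups overlapped fully, with a log2 fold change in the 8 arrays of -0.01 (SE 0.06, limma adjusted p = 0.973). A dimmer Igf2 probe set past the filter, 1415931_at, varied more, from 228 to 497 over the 10 arrays. It had -0.28 in the 8 arrays (SE 0.23, limma adjusted p = 0.748). The noncoding RNA gene H19 shares its only probe set with Mir675 in the platform annotation and is therefore outside the rule. That probe set had 10292, 10005, 10138, 8745 and 8440 in the mutant arrays, against 9434, 9494, 10005, 8637 and 8405 in the wild type arrays, with the arrays numbered 4 and 5 lowest in each group. A microRNA within the span of Igf2 is shown for the same reason as that of Mest (GRCm38.p6, chr7:142654932-142654952, minus strand, seed in capitals).
miR-483-3p: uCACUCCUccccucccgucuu

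In the neighbouring Kcnq1ot1 domain, where the paternally expressed noncoding RNA Kcnq1ot1 lies within a group of maternally expressed genes, 0 of 4 genes were called. Cdkn1c, an inhibitor of cyclin-dependent kinases, had -0.09 in the 8 arrays (limma adjusted p = 0.856), Phlda2, a gene that limits placental growth, -0.10 (0.637), Slc22a18, a transporter gene, 0.02 (0.976) and Kcnq1ot1 itself -0.01 (0.994). Kcnq1ot1 ranged most among arrays, from 482 to 749 in the 10.

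At the Peg3 locus on the same chromosome, Peg3, a zinc finger gene, had signals of 3451, 3201, 4182, 2760 and 3258 in Dicer mutant 1 to 5, against 3046, 3462, 2821, 2722 and 2907 in wild type 1 to 5. Dicer mutant 3 stood highest and Dicer mutant 4 lay among the wild type values. The log2 fold change in the 8 arrays was 0.23 (SE 0.11, limma adjusted p = 0.442), and its other 2 probe sets past the filter had 0.03 each. Zim1, a maternally expressed zinc finger gene, had -0.02 (adjusted p = 0.973), and Usp29 was under the filter at 106 to 136.

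The Snrpn-Ndn cluster, also on chromosome 7 and known from the human Prader-Willi region, had the lowest log2 fold change among the tested imprinted genes. Snrpn, which encodes a splicing protein of small nuclear ribonucleoproteins, had signals of 186, 152, 201, 196 and 187 at 1432096_at in Dicer mutant 1 to 5, against 215, 204, 215, 241 and 203 in wild type 1 to 5. All mutant arrays lay below all wild type arrays, the pair numbered 2 included. It was close to the filter in signal and was not called (8 arrays -0.18, SE 0.07, limma adjusted p = 0.303; 10 arrays -0.23, unadjusted p = 0.0173, adjusted p = 1.00). Probe sets annotated jointly to Snurf and Snrpn, outside the rule, included 1415895_at, with -0.06 (adjusted p = 0.891), and 1415896_x_at, with -0.02 (0.985). The others past the filter were 1421063_s_at, with -0.17 (0.817), and 1435716_x_at, with -0.08 (0.907). Ndn, which encodes the growth-restraining protein necdin, had -0.13 (adjusted p = 0.803), and its 5 probe sets past the filter ran from -0.21 to -0.13, with 0 called. Magel2, Mkrn3 and Peg12 were under the filter.

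A further 8 loci were each listed with 1 gene, and 0 of the 7 genes that could be tested were called. Igf2r had 1195, 1093, 1247, 826 and 928 in Dicer mutant 1 to 5, against 870, 1260, 936, 746 and 828 in wild type 1 to 5. It was higher in the mutant in 4 of the 5 pairs, and lower in the pair numbered 2 (8 arrays 0.30, SE 0.14, limma adjusted p = 0.443). Impact, a regulator of translation, had -0.13 (0.72) and Nnat 0.08 (0.938). Plagl1, a zinc finger gene, had -0.02 (0.985), Grb10, an adaptor that dampens insulin and growth factor signalling, 0.02 (0.963), Slc38a4 0.01 (0.996) and Gnas, which encodes a stimulatory G protein subunit, -0.01 (0.994).

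**Figure D5:**
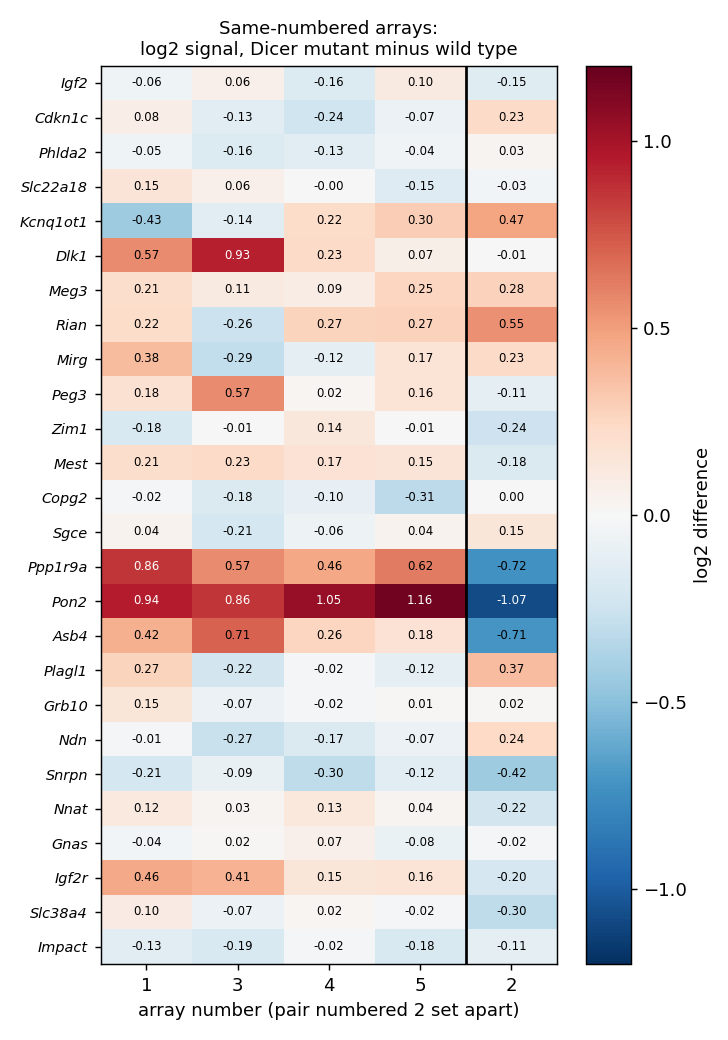
Log2 signal of the Dicer mutant array minus that of its same-numbered wild type array, for each tested imprinted gene (rows, by locus) and number (columns), with the pair numbered 2 set apart at the right. Pon2 runs from 0.86 to 1.16 in pairs 1, 3, 4 and 5 and is -1.07 in the pair numbered 2.

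The pair numbered 2 ran against the other pairs at both called genes. Its mutant minus wild type difference was -1.07 for Pon2, -0.72 for Ppp1r9a and -0.71 for Asb4, on the log2 scale. Over the 26 genes it was opposite in sign to the 8-array value in 17, beside 68.8% of all genes. In the other pairs the mutant was higher in 4 of 4 for 9 of the 26, beside 13.4% of all genes, and lower in 4 of 4 for 5, beside 19.3%. The rise of Pon2 was of like size on both sides of the split by number, with 0.90 in pairs 1 and 3 (limma adjusted p = 0.00843) and 1.10 in pairs 4 and 5 (adjusted p = 0.246, 2 arrays per group). Ppp1r9a had 0.71 (adjusted p = 0.0211) and 0.54 (adjusted p = 0.385).

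Related gene lists gave few calls in the 8 arrays. Of 47 other imprinted genes 39 were on the array and 25 passed the filter, with 0 called and a median log2 fold change of -0.03, beside -0.01 over all genes. Casd1 and Commd1, a maternally expressed gene of copper handling and protein degradation (-0.28, limma adjusted p = 0.125), had the smallest p. A list of neighbours of these loci not known as imprinted, which did not hold Sem1 or Slc25a13, had 13 tested genes. Of these 0 were called, and within the list Mrpl18 and Mrpl23, genes of mitochondrial ribosomal proteins, had the smallest p, with -0.34 (adjusted p = 0.0877) and -0.39 (0.251, and 0.0274 with the block). Of 14 tested genes of imprint maintenance and DNA methylation 0 were called. The DNA methyltransferase gene Dnmt3b had 0.35 (0.142) and the histone methyltransferase gene Ezh2 0.17 (0.253). Of 15 tested genes of insulin-like growth factor signalling 1 rose: Igf2bp1, an RNA-binding protein gene whose product binds Igf2 mRNA, had 1476, 715, 1630, 1418 and 1612 in Dicer mutant 1 to 5, against 1232, 1476, 1065, 1120 and 1186 in wild type 1 to 5 (0.41, SE 0.08, limma adjusted p = 0.0385). As for Pon2, its pair numbered 2 ran the other way. In the 10 arrays 0 genes of any of these lists were called.

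Markers of other cell types moved with the groups in part. Of 6 tested cartilage markers 1 was called, Col11a1, lower at -0.58 (limma adjusted p = 0.0314). Among these 6, 3 were higher in the mutants, and the median was -0.07. The summed signal of all 8 markers of the list on the array was 4594 to 6322 in mutant and 5383 to 7108 in wild type arrays of the 8. Of 4 tested nerve and Schwann cell markers 1 was called, Gap43, lower at -0.34 (limma adjusted p = 0.0466). Among these 4, 1 was higher in the mutants, and the median was -0.12. All 6 markers of that list on the array had sums of 962 to 1069 in mutant and 1032 to 1117 in wild type arrays. Of 4 tested macrophage markers (of 9 on the array) 0 were called, with a median of 0.26, while Ctss had 0.43 (0.0773, and 0.0197 with the block) and Tyrobp 0.49 (0.223, and 0.0164 with the block). The summed signal of all 9 macrophage markers was 1705 to 2052 in mutant and 1598 to 1798 in wild type arrays. The macrophage marker Aif1 was under the filter at 106 to 131. Red blood cell, endothelium, surface ectoderm and muscle progenitor markers had 0 called, with medians of 0.06, -0.01, 0.00 and -0.04. With the block the ectoderm keratin gene Krt14 was called lower (-0.45, limma adjusted p = 0.283 without the block and 0.0174 with it). Of the 12 tested limb bud mesenchyme markers 5 were higher in the mutants, with a median of -0.03, and 1 was called with the block. The hindlimb mesenchyme gene Tbx4 was called higher with the block (0.58, limma adjusted p = 0.157 without and 0.00705 with it). The part of these cell types in the differences of Pon2, Ppp1r9a and Mest was not tested, and in such samples fewer cells of a type and less RNA per cell cannot be told apart.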

How the data were processed

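Per the labels' protocols, biotin-labelled RNA was hybridised to Affymetrix arrays. The authors deposited linear intensity values for 45101 probe sets, and the submitters' processing notes name GCOS 1.3. The sources used here do not give the summarization model. Array means trimmed by 2% ran from 276 to 289, which is a spread of 4.76% and below the 10% at which a normalization would have been added. Log2 was taken after intensities under 1 had been set to 1. The 22519 probe sets at or above the median mean log2 (64 control probe sets left out) went into limma 3.58.1 in R 4.3.3, using lmFit, then eBayes allowing the variance to follow signal. P-values were adjusted over all of them by Benjamini-Hochberg and called at 0.05. The calling was tested on simulated data.

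Counts over all genes use the brightest probe set of each of 11601 genes. Members, lists and the comparison of 8 arrays were chosen with earlier results of these data known. Values in every array are given for the Igf2-H19, Dlk1-Meg3 and Peg10-Sgce loci, for called genes, for those with the smallest p and for those with the largest spread; other array values were added after they were seen. Gene order and sequences come from RefSeq (GRCm38.p6).

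Same-numbered arrays, as deviations from the mean of their group, correlated at 0.55, 0.55, 0.71 and 0.32 for numbers 1, 3, 4 and 5 in the 8 arrays, all over 0.1, so the number was taken to pair these 8. In the 10 arrays number 2 had -0.18, and the numbers were not taken to pair them. The highest values with another number were 0.54, 0.54, 0.52 and 0.52. These were close to the same-number value for numbers 1 and 3, above it for number 5 and below it for number 4. The pairing is therefore uncertain. The main fits did not use the number as a block, and values with the block are named as such. Alternatives were quantile normalization, centring on medians, offsets of 16 and 64, other filters, no trend, array weights, the replicate block, other choices of probe set and leaving out arrays.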

Additional observations from a re-analysis of the deposited data

Results flagged for a closer look

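Within groups of 5 arrays, the highest or the lowest array stood far from the other 4 in 3 of 52 groups of values of the tested imprinted genes, all in the pair numbered 2. Chance alone marks about 1 in 20 groups. Ppp1r9a had a signal of 443 in Dicer mutant 2, against 765 to 871 in the other mutant arrays. Pon2 had 196 in Dicer mutant 2, against 343 to 379 in the other mutant arrays. In wild type 2 Pon2 had 411, against 156 to 189 in the other wild type arrays. Each of these values lay nearer to the other group than to its own, as the Dicer1 signals of the same arrays did.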

How the results depend on the processing

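In the 10 arrays 0 probe sets and 0 imprinted genes were called under every alternative. In the 8 arrays the probe sets called were 378, and became 2612 with array weights, 1219 with the replicate block, 812 in pairs 1 and 3 alone, 0 in pairs 4 and 5 alone and 93 to 745 without 1 array. They were 110, 93, 142 and 745 without wild type 1, 3, 4 and 5, and 136, 103, 97 and 109 without Dicer mutant 1, 3, 4 and 5. The imprinted genes called were 2, and became 1 with the 70th percentile filter (Pon2 not tested), 5 in pairs 1 and 3 alone (Pon2, Ppp1r9a, Dlk1, Asb4, Igf2r), 0 in pairs 4 and 5 alone, 0 with the mean of all probe sets (Pon2 not tested) and 2 to 3 without 1 array. Without 1 array, Pon2 had 0.94 to 1.04 and Ppp1r9a 0.57 to 0.67, each called in all 8. Array weights and leaving out wild type 5 each gave 3, with Mest (adjusted p = 0.00648 and 0.0372). The replicate block also added Mest and changed no call of the other 25 tested imprinted genes.

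Signs turned for these log2 fold changes, none of them called in the full 10 or 8 arrays. In the 10 arrays Sgce had 0.0197 with quantile normalization, 0.0020 centred on medians, 0.0871 with array weights and -0.0431 to 0.0553 without 1 array; Mirg had -0.35 with array weights and -0.11 to 0.23 without 1 array; Dlk1 had -0.14 at the probe set not marked as shared. In the 8 arrays Igf2 had 0.0111 with quantile normalization, 0.0021 in pairs 1 and 3 alone and -0.0460 to 0.0374 without 1 array. Dlk1 had -0.0445 with array weights and -0.10 at the probe set not marked as shared, a choice added after seeing the data. Mirg had -0.44 with array weights, -0.0042 with the mean of probe sets and -0.17 to 0.27 without 1 array. Sgce had 0.10 with array weights and -0.0983 to 0.0328 without 1 array, and Rian -0.0163 in pairs 1 and 3 alone. The causes were not tested.

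Signals near the filter, as of Snrpn and Zim1, have an unknown distance from background, since detection calls were not used here.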
